A study of Mus musculus with 16 samples.

Results

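The mRNAs of 10 genes that take cells from G1 into S phase were followed in mouse ESCs. They were the D-type cyclin genes Ccnd1, Ccnd2 and Ccnd3 with their kinases Cdk4 and Cdk6, the E-type cyclin genes Ccne1 and Ccne2, the cyclin A2 gene Ccna2, the kinase gene Cdk2, and Cdkn1b, which encodes the inhibitor p27. The 10 were listed by name, and the group was picked because Ccne1 lay among the largest falls in the cytoplasmic RNA of RAM siRNA cells. Of 46983 genes listed, 12805 reached 1 CPM (the count scaled to a common library size) in 10 or more of the 16 libraries and were tested, and all 10 were among them. Among 625 genes called lower in that comparison with a mean of at least 10 CPM, Ccne1 had rank 5 by size of fall, with a log2 fold change of -1.16. Cldn7 stood next above it (-1.23), Coq3 next below (-1.16), and Ccnd3 had rank 15 (-0.95). Since the choice rested on this comparison, the change of the 10 genes in input is given below as values with the standard error (SE) of the fit and without a test.

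RNA was sequenced from 46C ESCs, a line of strain 129Ola mice that expresses GFP from the Sox1 locus, grown with LIF and knockout serum replacement. Cells were harvested 48 hr after transfection with a siRNA against RAM, the activating partner of the mRNA cap methyltransferase RNMT, or with a non-targeting control siRNA. Each extract gave 1 library of cytoplasmic RNA (input) and 1 library of RNA from the pooled polysome fractions of a sucrose gradient, after cycloheximide had been added to hold ribosomes on the mRNA. The groups were control input, RAM siRNA input, control polysome and RAM siRNA polysome, with 4 libraries each from 4 independent experiments. The Sox1-GFP line, the medium and cycloheximide were common to the groups. The study's supplement names a single RAM siRNA for this experiment, so effects of RAM and of that one siRNA sequence cannot be told apart. In bulk RNA, a change in the share of cells in a cell cycle phase and a change of mRNA per cell cannot be told apart, and CPM does not show a change of total RNA.

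D-type cyclins bind Cdk4 and Cdk6 and begin the phosphorylation of the retinoblastoma protein, which frees E2F factors to transcribe genes of DNA replication, Ccne1, Ccne2 and Ccna2 among them. Cyclins E1 and E2 bind Cdk2 and start S phase, and cyclin A2 acts with Cdk2 through S phase and with Cdk1 later. p27 binds and inhibits cyclin E-Cdk2. Mouse ESCs have a short G1 phase and are known for high Cdk2 activity with little oscillation of cyclin E over the cycle.

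Short stretches of the 3′ UTRs are shown since an earlier look at these libraries had named 6 letters, ACTATC, as frequent in genes that fell in input. The letters were searched on the transcript strand of all annotated 3′ UTRs of GENCODE M21 (build GRCm38), and they stand in capitals in the reference sequences below, which read 5′ to 3′. The matches of Ccne1, Ccna2 and Ccne2 are shown, 1 in each.
Ccne1, chr7:38097984-38098013, minus strand: atttttaataaagataatACTATCtttgaa
Ccna2, chr3:36565226-36565255, minus strand: ttcttcttcttcACTATCtgatagcactat
Ccne2, chr4:11203160-11203189, plus strand: agtagtgctgtaACTATCcttgtctaagga
The match of Ccne1 began at base 520 of its 531-base 3′ UTR, close to the end of the transcript. Cdk6 held 3 matches in a 3′ UTR of 10217 bases. Ccne2, which was higher in RAM siRNA input, had a match, and Ccnd3, whose fall came next in size to that of Ccne1, had none. The 10 genes are too few to relate a match to a direction of change. Over all tested genes with an annotated 3′ UTR, 1934 (15.965%) held the letters and 15.0% of these were called lower in input, against 4.55% of the 10180 without them. Longer 3′ UTRs hold more matches by length alone, and genes of like 3′ UTR length were not compared. Another 6 letters, TGCTCA, had been named earlier for genes that rose. Of the 4741 genes that held them 8.88% were called higher in input, against 5.97% of the 7373 without them. The shares called lower were 5.97% with them and 6.37% without. Both sets of letters were chosen on these libraries, and the sequence of the siRNA was not used here. The part of such matches, or of 3′ UTR length, in any change was not tested.

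The libraries held between 16647523 and 20147833 counts. Ramac, the gene of RAM, had 197 to 206 counts per control input library and 46 to 58 per RAM siRNA input library, or 28.0% of the control mean in CPM. In polysomes it stood at 16.6% of the control mean, with 122 to 256 counts per control library and only 5 to 45 per RAM siRNA library. Within replicate numbers that ratio ran from 0.04 to 0.26. The 8 ESC markers, Pou5f1, Nanog and Sox2 among them, were all expressed. Their summed level was 2677 to 2865 CPM in control input and 2293 to 2457 CPM in RAM siRNA input, and 4 of the 8 were called lower by edgeR (7 with the replicate block explained below), against 5.94% and 19.0% of all genes. Of the 5 trophoblast markers Cdx2, Elf5 and Hand1 stayed under 1 CPM in all 16 libraries, as did Dcn and Lum of the 5 fibroblast markers. The highest library held 1.57 CPM of Gata3 (trophoblast), 1.57 of Col1a1 and 1.72 of Col1a2 (both fibroblast). The summed trophoblast markers were 14.2 to 17.1 CPM in control input and 11.4 to 15.8 CPM in RAM siRNA input, nearly all from Eomes. The summed fibroblast markers were 5.234 to 6.504 and 6.87 to 9.22 CPM, and of the 5 only Pdgfrb was expressed enough to be tested (log2 fold change 0.52 in input, adjusted p = 0.0268 by edgeR). The summed neural markers were 73.3 to 85.8 CPM in control input and 78.8 to 92.7 CPM in RAM siRNA input, and those of primitive endoderm 16.9 to 19.0 and 17.3 to 24.9 CPM. Of 5 tested neural markers 1 was called lower in input and 0 higher. The 1 was Neurod1, near the filter limit at 1.87 and 0.98 CPM (log2 fold change -0.93, adjusted p = 0.0128 by edgeR). With the block 2 were lower (Neurod1 and Pax6) and 1 higher, Nes, at 27.7 and 37.3 CPM (0.43, adjusted p = 3.7e-06 by edgeR). Of 4 tested primitive endoderm markers 1 was called higher, Gata6, low at 2.83 and 4.34 CPM (0.61, adjusted p = 0.0196 by edgeR). With the block 2 were higher and 1 lower. Of all genes 6.95% were called higher in input without the block and 20.3% with it, next to the 5.94% and 19.0% called lower. The part of the lower ESC marker level and of the other marker levels in the changes below was not tested.

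In input, RAM siRNA cells held 44.7% of the control level of Ccne1 mRNA and 51.8% of that of Ccnd3 mRNA. Ccna2 stood at 81.9% of control, while Ccnd1 was 1.64-fold and Ccnd2 1.42-fold higher. The 3 kinase mRNAs stayed between 85.5% (Cdk6) and 95.8% (Cdk2) of control, and Cdkn1b at 88.7%. In polysomes the order was much the same, from 39.5% of control for Ccne1 and 48.5% for Ccnd3 to 1.69-fold for Ccnd1 and 1.82-fold for Ccnd2.

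The polysome libraries were not used to choose the genes, although they came from the same extracts as the input libraries, and each fraction has its own control libraries. Libraries with the same replicate number departed from their group means together, so each test was run both ways, first with no term for the replicate number and then with one (replicate block). Without the block, 0 of the 10 genes passed an adjusted p of 0.05 in polysomes by edgeR's quasi-likelihood test, where 3 of all 12805 genes did (0.0234%). At an unadjusted p under 0.05 there were 4 of the 10 and 1152 of all 12805 genes. The counts of DESeq2, for the 10 and for all genes, are given in the last section. By limma-voom 0 of the 10 passed, but its count over all genes is not given here, so nothing is read from that. With the block, 5 of the 10 passed, against 14.6% of all genes. Ccne1, Ccnd3 and Ccna2 fell (4.97% of all genes did) and Ccnd1 and Ccnd2 rose (9.68% did). In 5 of the 10, no RAM siRNA polysome library overlapped the control libraries, 4 lower (Ccne1, Ccnd3, Ccna2 and Cdkn1b, against 4.38% of all genes) and 1 higher (Ccnd1, against 2.18%), together against 6.56% of all genes. In input, 3 of the 10 were called lower and 1 higher without the block, against 5.94% and 6.95% of all genes (12.9% in all), and 6 and 3 with it, against 19.0% and 20.3% (39.3% in all). Input groups did not overlap for 3 lower genes and 1 higher, against 8.62% and 9.39% of all genes (18.0% in all). These input counts hold the comparison that chose the group, and nothing is read from them.

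**Figure D1:**
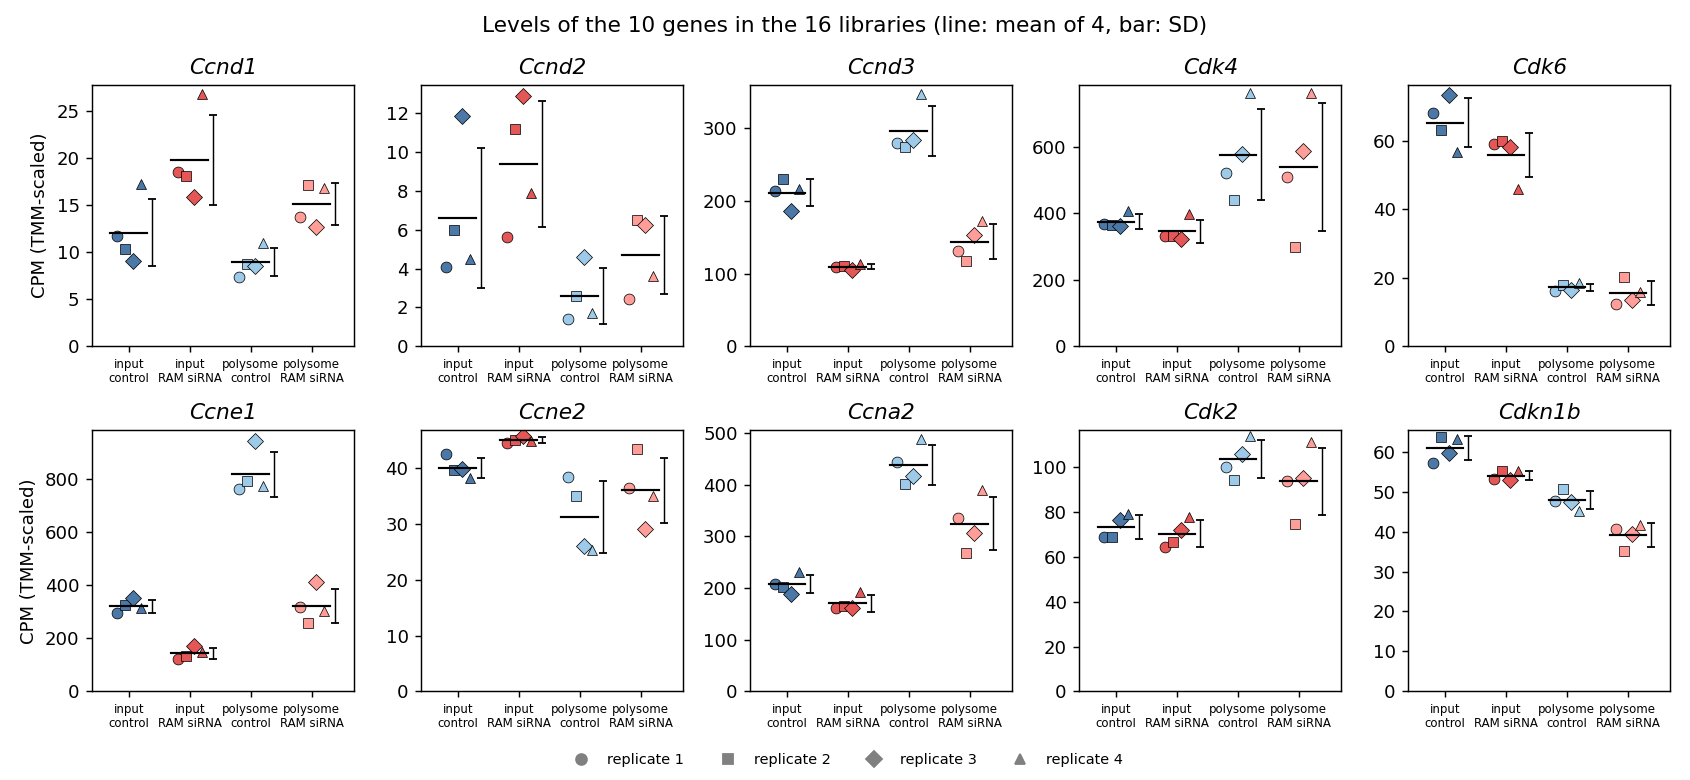
Level of each gene in CPM (TMM-scaled, linear axis from 0) in the 4 libraries of each group, with the mean as a line, the SD as a bar and the replicate number as the symbol. For Ccne1 and Ccnd3 the RAM siRNA points lie below all control points in both fractions, while for Cdk2 and Cdk4 the groups overlap in both.

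Among the D-type cyclins, Ccnd3 was by far the most abundant and was the one that was lower. The gene (ENSMUSG00000034165) lies on the plus strand of chromosome 17 from 47505051 to 47599691. In input its mRNA stood at 213, 229.8, 186 and 216 CPM in control replicates 1 to 4 and at 109, 111, 105 and 113 CPM in RAM siRNA replicates 1 to 4. The groups did not overlap, and the RAM siRNA libraries lay close together, with an SD of 3.50 CPM. The log2 fold change was -0.95 (SE 0.08). In polysomes Ccnd3 stood at 280.1, 274, 284 and 347 CPM in control cells and at 132, 118, 153 and 173 CPM in RAM siRNA cells. Again each RAM siRNA library lay below each control library. The polysome log2 fold change was -0.99 (SE 0.19, adjusted p = 0.0918 by edgeR) without the block and -1.003 (SE 0.11, adjusted p = 6.75e-05) with it.

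Ccnd1, the D-type cyclin gene best known as a target of growth factor signalling, lies on the minus strand of chromosome 7 from 144929931 to 144939925 (ENSMUSG00000070348) and moved the other way. In input it stood at 11.7, 10.4, 9.09 and 17.2 CPM in control cells and at 18.5, 18.1, 15.8 and 26.8 CPM in RAM siRNA cells. The groups overlapped, since control replicate 4 was above RAM siRNA replicate 3, but within each replicate number RAM siRNA was 1.56- to 1.74-fold higher. The input log2 fold change was 0.71 (SE 0.20). In polysomes Ccnd1 stood at 7.42, 8.74, 8.57 and 11.0 CPM in control cells and at 13.7, 17.2, 12.7 and 16.8 CPM in RAM siRNA cells, without overlap. The difference there came to 0.80 in log2 (SE 0.18, adjusted p = 0.157 by edgeR) without the block and 0.81 (SE 0.13, adjusted p = 0.000712) with it.

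Ccnd2 was the lowest of the D-type cyclins, with as few as 26 counts in a control polysome library, and lies on the minus strand of chromosome 6 from 127125162 to 127152193 (ENSMUSG00000000184). In input it stood at 4.07, 5.97, 11.9 and 4.50 CPM in control cells and at 5.62, 11.2, 12.9 and 7.92 CPM in RAM siRNA cells. In polysomes the values were 1.41, 2.60, 4.62 and 1.71 CPM in control cells and 2.41, 6.53, 6.26 and 3.62 CPM in RAM siRNA cells. The groups overlapped in both fractions, and replicate 3 of the control stood apart as the highest in each. RAM siRNA was higher within all 4 replicate numbers, by 1.08- to 1.88-fold in input and 1.35- to 2.52-fold in polysomes. The input log2 fold change was 0.51 (SE 0.32), and it was 0.95 without control replicate 3 and 0.31 without RAM siRNA replicate 3. The polysome log2 fold change was 0.91 (SE 0.45, adjusted p = 0.611 by edgeR) without the block and 0.93 (SE 0.18, adjusted p = 0.0032) with it.

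Taken per kb of exon, so that genes of different length can be set side by side, Ccnd3 made up 88.0% ± 2.11 (SD, n = 4) of D-type cyclin reads in control input and 70.7% ± 3.03 in RAM siRNA input. The share of Ccnd1 was 9.34% ± 2.34 and 23.6% ± 4.02, or 5.46% and 15.0% when taken per kb of the longest transcript. In polysomes the Ccnd3 share was 94.0% ± 0.673 in control and 81.3% ± 3.89 in RAM siRNA cells, and the ranges did not overlap (93.3% to 94.9% against 75.5% to 83.9%). The summed level of the 3 D-type cyclins was 27.3 ± 2.16 CPM per kb in control input and 17.7 ± 1.23 in RAM siRNA input, and 35.9 ± 4.15 and 20.1 ± 2.73 in polysomes. The lower sum thus went with a mixture that held relatively more Ccnd1. Taken over the longest transcript, the Ccnd3 share in input was 92.7% and 80.8%, and the summed level was 59.02 and 35.15 CPM per kb.

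The kinases that D-type cyclins activate did not pass the test in polysomes. Cdk4, on the plus strand of chromosome 10 from 127063534 to 127067920 (ENSMUSG00000006728), stood at 361 to 407 CPM in control input and 323 to 397 CPM in RAM siRNA input, a log2 fold change of -0.12 (SE 0.08). Its polysome level was spread widely between replicates, from 439.97 to 762 CPM in control and from 300.2 to 763 CPM in RAM siRNA libraries. The polysome log2 fold change was -0.04, with a 95% interval of -0.77 to 0.69 (adjusted p = 0.995 by edgeR, and 0.698 with the block), so a change of either sign remained possible. The sign differed between alternatives.

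Cdk6, on the plus strand of chromosome 5 from 3341485 to 3531008 (ENSMUSG00000040274), stood at 68.2, 63.3, 73.3 and 56.7 CPM in control input and at 59.2, 59.9, 58.3 and 46.1 CPM in RAM siRNA input. It was lower within all 4 replicate numbers, with overlapping groups and a log2 fold change of -0.23 (SE 0.10). In polysomes it stood at 16.3 to 18.5 CPM in control and 12.4 to 20.3 CPM in RAM siRNA cells, a log2 fold change of -0.11 with an interval of -0.54 to 0.33 (adjusted p = 0.972 by edgeR, and 0.559 with the block). Cdk4 made up over 95% of the summed Cdk4 and Cdk6 reads per kb in each of the 16 libraries.

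Ccne1, on the minus strand of chromosome 7 from 38097984 to 38107534 (ENSMUSG00000002068), had the largest change of the 10. It encodes cyclin E1, the main E-type cyclin of these cells by mRNA. In input it stood at 294, 325, 352 and 313 CPM in control replicates 1 to 4 and at 124, 133, 169.6 and 148 CPM in RAM siRNA replicates 1 to 4. The groups lay far apart, and within replicate numbers RAM siRNA was at 0.410 to 0.482 of control. The input log2 fold change was -1.16 (SE 0.10). In polysomes Ccne1 stood at 759.9, 791, 941 and 772 CPM in control cells and at 316, 257, 411 and 304 CPM in RAM siRNA cells. The highest RAM siRNA library, at 411 CPM, lay well below the lowest control library, at 759.9 CPM. The polysome log2 fold change was -1.29 (SE 0.21, adjusted p = 0.0694 by edgeR) without the block and -1.31 (SE 0.12, adjusted p = 2.36e-05) with it. Over all tested genes this was rank 18 from the lowest in polysomes and rank 22 in input.

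Its paralog Ccne2, on the plus strand of chromosome 4 from 11191351 to 11204779 (ENSMUSG00000028212), did not share the fall. In input it stood at 42.5, 39.7, 39.9 and 38.3 CPM in control cells and at 44.6, 45.1, 45.8 and 44.9 CPM in RAM siRNA cells. The groups did not overlap, and RAM siRNA was higher, with a log2 fold change of 0.17 (SE 0.06). In polysomes the groups overlapped, at 25.4 to 38.4 CPM in control and 29.0 to 43.4 CPM in RAM siRNA cells. The log2 fold change there was 0.25 with an interval of -0.18 to 0.69 (adjusted p = 0.81 by edgeR, and 0.141 with the block). RAM siRNA was higher in 3 of 4 replicate numbers.

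Per kb of exon, Ccne1 made up 91.3% ± 0.843 (SD, n = 4) of E-type cyclin reads in control input and 80.5% ± 1.98 in RAM siRNA input. In polysomes it made up 97.1% ± 0.747 and 91.8% ± 2.56, with ranges of 96.3% to 97.9% and 88.6% to 94.9%. The summed E-type level was 132 ± 8.93 CPM per kb in control input and 66.8 ± 7.68 in RAM siRNA input, and 315.5 ± 30.8 and 131 ± 22.6 in polysomes. Ccne1 remained the larger part in all 4 groups.

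**Figure D2:**
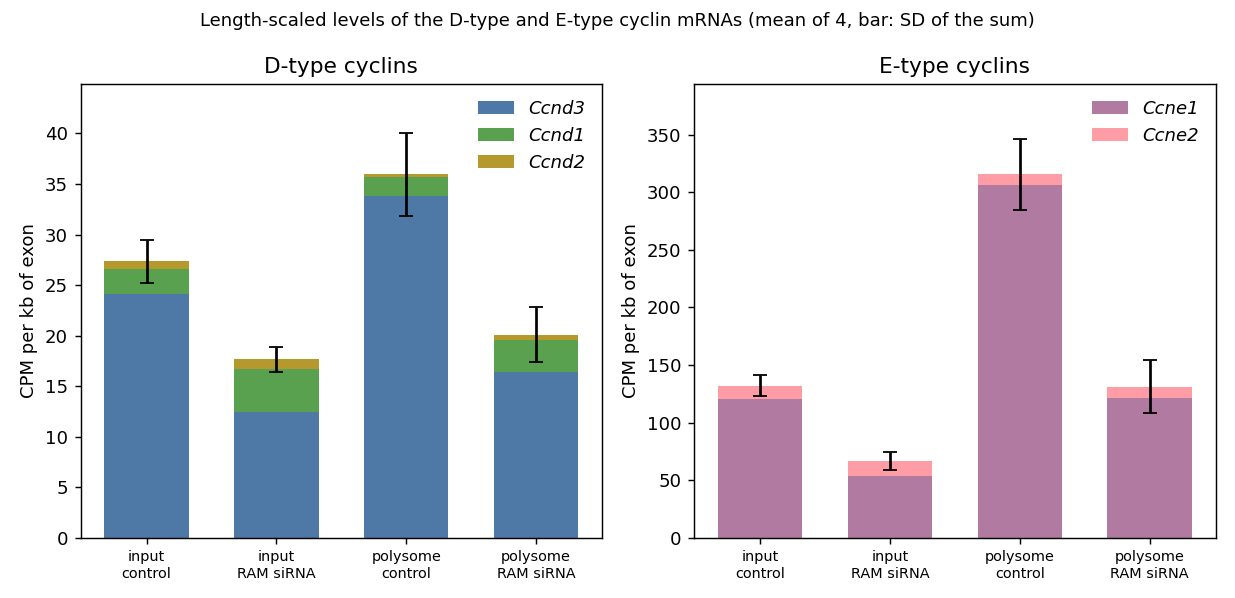
Stacked bars of the mean level in CPM per kb of exon (linear axis from 0) of the 3 D-type cyclins, left, and of the 2 E-type cyclins, right, in the 4 groups, with the SD of the sum over 4 libraries as a bar. The D-type sum falls from 27.3 to 17.7 and the E-type sum from 132 to 66.8 CPM per kb in input, with a larger part for Ccnd1 and for Ccne2.

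Ccna2, on the minus strand of chromosome 3 from 36564865 to 36572150 (ENSMUSG00000027715), was lower by a smaller amount. In input it stood at 208, 203, 189 and 231 CPM in control cells and at 161, 166, 161 and 193 CPM in RAM siRNA cells. Replicate 4 was highest in both groups, which made them overlap, while within replicate numbers RAM siRNA was at 0.771 to 0.849 of control. The input log2 fold change was -0.29 (SE 0.08). In polysomes Ccna2 stood at 443, 401, 416 and 489 CPM in control cells and at 336, 267, 306 and 390 CPM in RAM siRNA cells, without overlap. The polysome log2 fold change was -0.38 (SE 0.17, adjusted p = 0.554 by edgeR) without the block and -0.39 (SE 0.11, adjusted p = 0.0309) with it. This call was lost when replicate 1, 3 or 4 was left out of the blocked test.

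Cdk2, the kinase of cyclins E and A, lies on the minus strand of chromosome 10 from 128697939 to 128705031 (ENSMUSG00000025358) and moved little. It stood at 68.6 to 79.2 CPM in control input and 64.5 to 77.9 CPM in RAM siRNA input, a log2 fold change of -0.06 (SE 0.08). In polysomes it stood at 94.1 to 114 and at 74.5 to 111 CPM, a log2 fold change of -0.09 with an interval of -0.51 to 0.33 (adjusted p = 0.973 by edgeR, and 0.578 with the block).

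Cdkn1b, on the plus strand of chromosome 6 from 134920401 to 134925513 (ENSMUSG00000003031), was slightly lower. In input it stood at 57.3, 63.7, 59.6 and 63.0 CPM in control cells and at 53.1, 55.0, 52.9 and 55.1 CPM in RAM siRNA cells, a log2 fold change of -0.18 (SE 0.06). In polysomes it stood at 47.8, 50.7, 47.5 and 45.2 CPM in control cells and at 40.7, 35.0, 39.3 and 41.5 CPM in RAM siRNA cells. The groups overlapped in neither fraction. The polysome log2 fold change was -0.24, with an interval of -0.58 to 0.10, and did not pass the test (adjusted p = 0.714 by edgeR, and 0.167 with the block).

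**Figure D3:**
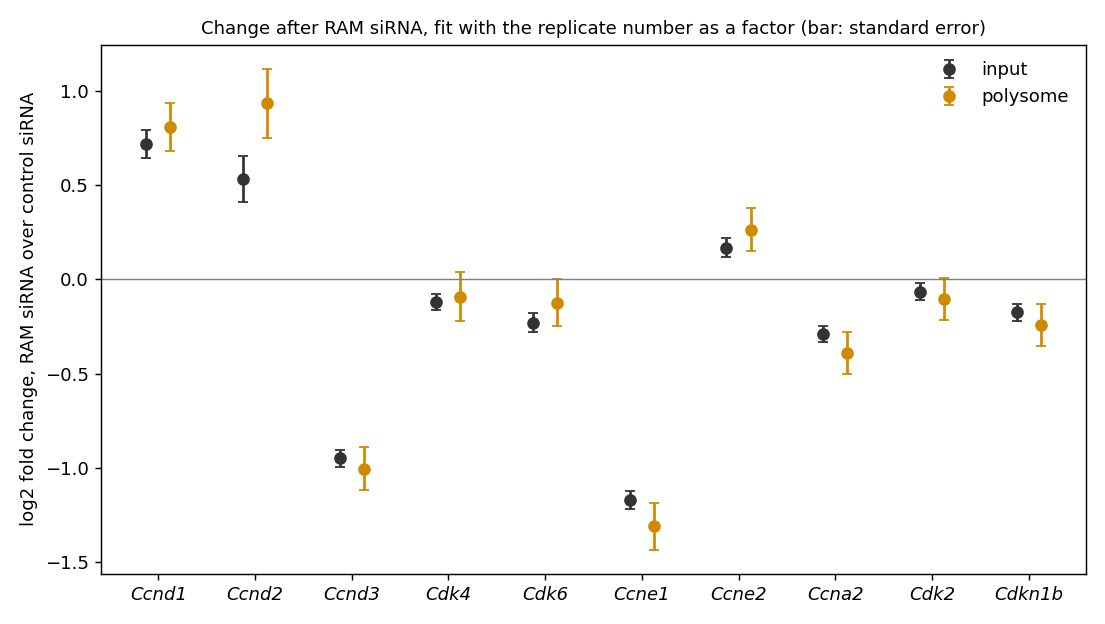
Log2 fold change of RAM siRNA over control for each gene in input (dark) and polysomes (ochre) from the test with the replicate block, with the SE as a bar. Ccne1 and Ccnd3 lie near or below -0.95 in both fractions, Ccnd1 near 0.7 to 0.8, and Cdk2 and Cdk4 near 0.

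Some of these values have limits of their own. The libraries keep the strand, but the strand setting of the authors' counting was not given in the sources used here. An annotated gene on the opposite strand overlaps Ccnd1 (LTO1), Ccnd3 (Bysl), Ccne2 (Ints8), Ccna2 (Exosc9), Cdk2 (Pmel) and Cdk4 (Tspan31), and exons of Ccnd2 and Cdk6 overlap antisense genes with 0 to 3 counts in all libraries together. No annotated gene overlaps Ccne1 or Cdkn1b. Ccnd3 has a processed pseudogene with 96.3% identity over 881 aligned bases, which held 32 counts in all 16 libraries. Short stretches of Cdk6 also match transcripts of several other genes. Among them are the pseudogene Gm42961 (97.7% over 175 bases, 0 counts) and an Rps24 transcript with a retained intron (92.9% over 154 bases, 236340 counts for that gene). The part of such matches in the counts was not tested.

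In control input the order of levels per kb of exon ran from Ccne1 (120.5 ± 9.15 CPM per kb, SD, n = 4) and Cdk4 (115 ± 6.65), whose ranges overlapped, to Ccna2 (50.9 ± 4.24) and Ccnd3 (24.1 ± 2.11). Cdkn1b (13.4), Cdk2 (11.8) and Ccne2 (11.5 CPM per kb) followed, each overlapping its neighbour, and then Cdk6 (4.67), Ccnd1 (2.57) and Ccnd2 (0.702). In RAM siRNA input Cdk4 stood alone at the top with 107 ± 10.6 CPM per kb, and Ccne1 (53.9 ± 7.55) overlapped Ccna2 (41.7 ± 3.82). Ccnd3 (12.5 ± 0.399) had come down into the range of Ccne2, Cdkn1b and Cdk2, and Ccnd1 (4.21 ± 1.02) overlapped Cdk6 (3.995 ± 0.468). The order depended on the length used. Per kb of the longest transcript, Cdk4 (183 ± 10.5 CPM per kb) stood above Ccne1 (160.4 ± 12.2) in control input, with overlapping ranges, Ccnd3 stood at 54.7 ± 4.81, and Ccnd3 (28.4 ± 0.908) in RAM siRNA input stayed above Cdk2 (21.5 ± 1.84), Ccne2 and Cdkn1b without overlap.

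Polysome loading was next compared as the level in control polysomes over that in control input, relative to the average mRNA. The genes differed widely in loading: Ccne1 was 2.54-fold higher in polysomes than in input and Ccna2 2.10-fold higher, while Cdk6 stood at 26.4% and Ccnd2 at 39.1% of its input level. In control cells 9 of the 10 genes passed the test, 5 higher and 4 lower in polysomes, and so did 67.4% of all genes (33.1% higher and 34.3% lower). The share among the 10 is thus read against a background in which most genes differ between the fractions. With the block all 10 passed, 5 higher and 5 lower, against 72.3% of all genes (35.1% higher and 37.2% lower). Control input and polysome libraries did not overlap for 7 of the 10, 5 higher and 2 lower (Cdk6 and Cdkn1b), against 61.0% of all genes (30.7% higher and 30.4% lower).

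Ccne1 had a log2 loading of 1.31 in control cells (SE 0.13, adjusted p = 5.57e-06 by edgeR), at the 97.1 percentile of all tested genes, and the ratio lay between 2.44 and 2.67 in the 4 control extracts. That of Ccna2 was 1.04 (SE 0.12, adjusted p = 2e-05). Cdk4 (0.59, adjusted p = 0.0085), Cdk2 (0.46, adjusted p = 0.00332) and Ccnd3 (0.46, adjusted p = 0.00806) were also higher in polysomes by edgeR. Each of these 5 was higher in polysomes in all 4 control extracts.

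Cdk6 was lower in polysomes by a log2 difference of -1.95 (SE 0.12, adjusted p = 2.9e-07 by edgeR), at the 4.43 percentile of all genes, with ratios of 0.225 to 0.326. Ccnd2 was lower by -1.38 (SE 0.41, adjusted p = 0.0111), Ccne2 by -0.40 (adjusted p = 0.0242, a call lost in 5 of 23 alternatives) and Cdkn1b by -0.38 (adjusted p = 0.0048). Ccnd1, at -0.47 (SE 0.21), did not pass without the block (adjusted p = 0.0666 by edgeR) and passed with it (adjusted p = 0.0214), a call made in 7 of 9 blocked alternatives (lost without replicate 1 or 4) and 10 of 23 in all. Within each family, then, loading was uneven: Ccnd3 was above and Ccnd1 and Ccnd2 below the average mRNA, and the same held for Ccne1 against Ccne2 and for Cdk4 against Cdk6. Differences in loading between the paralogs were not tested.

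**Figure D4:**
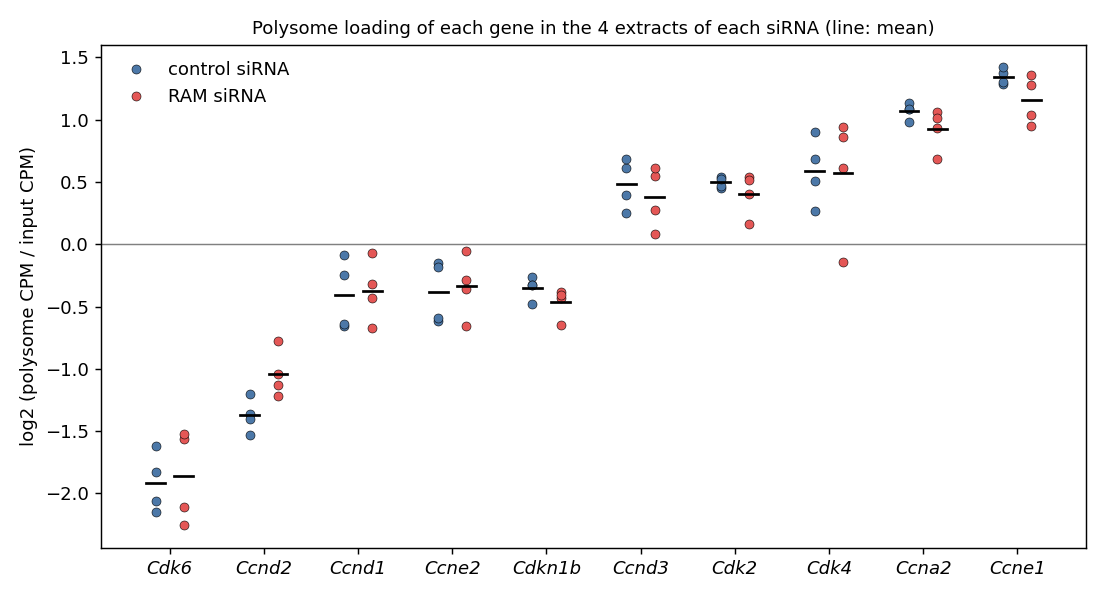
Log2 ratio of the polysome to the input level in CPM for each gene in the 4 control (blue) and 4 RAM siRNA (red) extracts, genes ordered by the control mean, with the mean as a line. Ccne1 and Ccna2 lie at the top and Cdk6 and Ccnd2 at the bottom with either siRNA, and the points of control and RAM siRNA extracts overlap for all 10 genes.

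The change of loading, which is the polysome change minus the input change, contains the comparison that chose the group and is given as values with 95% intervals. For Ccne1 it was -0.18 on the log2 scale (-0.65 to 0.29) and for Ccna2 -0.14 (-0.56 to 0.27). For Ccnd3 it was -0.09 (-0.51 to 0.32), for Ccnd1 0.04 (-0.59 to 0.68) and for Ccnd2 0.36 (-0.93 to 1.65). The other 5 genes lay between -0.11 (Cdkn1b) and 0.07 (Cdk6). All 10 intervals included 0, also with the replicate block within each fraction, where that of Ccne1 ran from -0.49 to 0.11. Ccne1 was thus 2.24-fold higher in polysomes than in input in RAM siRNA cells, against 2.54-fold in control cells. Over all 12805 genes, 0 were called by edgeR's quasi-likelihood test and by limma-voom, 1 by DESeq2 and 2 with the block (0.0156%), and 100 had an unadjusted p under 0.05 by edgeR.

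Other genes of the pathway were taken from lists, and their input changes were tested. Of 16 S-phase entry genes, which include the MCM helicase subunits and the enzymes that supply nucleotides, 2 fell in input without the block and 11 with it, and 0 rose, where 5.94% and 19.0% of all genes fell. The median log2 fold change of the list was -0.14, against 0.00 for all genes. The 2 were the ribonucleotide reductase subunits Rrm2 (257 ± 11.8 to 189 ± 22.4 CPM, log2 fold change -0.44, adjusted p = 0.00659 by edgeR) and Rrm1 (-0.40, adjusted p = 0.0093). In polysomes 0 of the 16 passed without the block and 1 with it (4.97% of all genes fell with it), Rrm2, at -0.43 (adjusted p = 0.0221 by edgeR). Pcna, the replication clamp, stood at -0.24 in input (adjusted p = 0.1, and 0.000245 with the block, by edgeR).

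Of 5 genes of mitotic cyclins and Cdk1, 2 fell in input without the block and 4 with it, against 5.94% and 19.0% of all genes. Ccnb2 fell from 114 ± 2.70 to 72.3 ± 4.16 CPM (log2 fold change -0.66, adjusted p = 0.000143 by edgeR) and Ccnb1 from 335 ± 15.7 to 270.5 ± 7.10 CPM (-0.31, adjusted p = 0.0118). Both also fell in polysomes with the block, Ccnb2 by 0.65 on the log2 scale (adjusted p = 0.00141 by edgeR) and Ccnb1 by 0.43 (adjusted p = 0.0218), while 0 of the 5 passed without it (4.97% of all genes fell with the block and 0.0234% without it).

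Of 6 other CDK inhibitor genes, 4 were expressed enough to be tested. None passed without the block in either fraction by edgeR, and with it 2 rose in both, where 20.3% of all genes rose in input and 9.68% in polysomes. Cdkn1a, the p21 gene and a known p53 target, stood at 14.8 ± 1.95 and 18.8 ± 1.98 CPM in input (log2 fold change 0.34, adjusted p = 0.0657 by edgeR, and 0.00118 with the block). In polysomes its log2 fold change was 0.68 (adjusted p = 0.425 by edgeR) and with the block 0.64 (adjusted p = 0.00614). Cdkn2a, which encodes p16 and p19Arf, was low, at 3.64 ± 1.22 and 4.67 ± 0.943 CPM in input, and passed only with the block (0.36, adjusted p = 0.0389 by edgeR).

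Of 8 genes of CDK activating and inhibitory enzymes, Mnat1, a subunit of the CDK activating kinase, fell in input (-0.47, adjusted p = 0.0139 by edgeR) and Pkmyt1, an inhibitory kinase of Cdk1, rose (0.25, adjusted p = 0.0467). With the block 3 fell and 1 rose in input, and 2 fell in polysomes, Mnat1 and Cdc25c, against 19.0%, 20.3% and 4.97% of all genes. Of 14 tested genes of the ubiquitin ligases that degrade cyclins and p27, 1 fell in input, Fbxo5, which encodes the APC/C inhibitor Emi1 (71.0 ± 5.30 to 57.9 ± 3.03 CPM, -0.30, adjusted p = 0.0194 by edgeR). With the block 5 fell and 1 rose, against 19.0% and 20.3% of all genes. Fbxw7 and Skp2, whose products mark cyclin E and p27 for degradation, did not pass in input or in polysomes, with or without the block.

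Of 15 tested other cyclin genes, Ccng1 (-0.43, adjusted p = 0.00598 by edgeR) and Ccnc (-0.25, adjusted p = 0.0412) fell in input. Ccno, low at 1.83 and 2.92 CPM, rose (0.67, adjusted p = 0.0197 by edgeR). With the block 4 fell and 4 rose (19.0% and 20.3% of all genes did). Without the block 5.94% of all genes fell and 6.95% rose. Of 13 other CDK genes 0 fell and 2 rose with or without the block, Cdk10 (0.48, adjusted p = 0.00353 by edgeR) and Cdk5 (0.35, adjusted p = 0.0211). The medians of both lists lay within 0.01 of 0 on the log2 scale.

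The genes whose log2 CPM followed that of Ccne1 most closely over the 16 libraries, of 9139 with a mean of at least 10 CPM, were Cldn7 (Pearson r = 0.988), Acsl5 (0.987), Hccs (0.975), Gna14 (0.975) and Dpagt1 (0.97). These correlations are a description over libraries that share 4 groups, so that differences between groups make up most of them. Among the 10 genes, Ccnd3 (0.893) and Ccna2 (0.861) ran most nearly with Ccne1, and Ccnd1 (-0.833) and Ccne2 (-0.795) ran against it. Within the 8 input libraries alone r was 0.94 for Ccnd3 and -0.776 for Ccnd1, and within the 8 polysome libraries 0.939 and -0.925. Each set of 8 still holds both siRNA groups, so the changes given above enter these r values too. Correlations within a single group were not computed. Cdkn1b showed the reverse case, with r of -0.227 over all 16 libraries and 0.854 and 0.894 within the fractions, its loading being opposite to that of Ccne1.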

How the data were processed

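Cytoplasmic and polysome RNA of mouse ESCs was sequenced in 16 libraries after depletion of ribosomal RNA with a stranded kit. Per the study's methods and processing notes, the authors mapped reads to GRCm38 (mm10) with STAR 2.5.1b and counted them per Ensembl gene with HTSeq, and they deposited raw counts without normalization. The annotation release and the strand and overlap settings are not given in the sources used here. No row of the table lacked a gene, and 0 columns belonged to other samples. The labels and the methods describe the transfection differently (the labels give 70 pM siRNA).

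The filter of the study's methods, 1 CPM or more in 10 or more libraries, kept 12805 of 46983 genes. After TMM scaling, groups were compared in R 4.3.3 by quasi-likelihood F tests (edgeR 4.0.16), and p-values were adjusted by Benjamini-Hochberg over the 12805 genes, with a threshold of 0.05. Changes within a fraction and loading used their own 8 libraries, and the change of loading used all 16. Levels in CPM were scaled over all 16 libraries. Intervals cover 95% (t, residual degrees of freedom). The tests were also run on simulated counts with the same spread for both fractions. The real polysome libraries differed more from each other than the input libraries, so that run does not show how the tests perform on them. Same-numbered libraries, which came from the same experiment, deviated together, so fits with the replicate number as a factor were added as the alternative. Over 9140 genes r was 0.4 to 0.797 in input, 0.625 to 0.944 in polysomes and 0.237 to 0.571 between control fractions. The means for different numbers were -0.197, -0.273 and -0.131. Deviations from a group mean cancel within the group, so these negative means follow from the same-numbered values and are not separate evidence. Copies of a library were looked for, and the least difference within a group was a chi-square per gene of 5.09. Gene positions, exon lengths and UTRs were taken from GENCODE M21, and levels of different genes were compared per kb of all annotated exons.

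The members and lists were chosen with earlier results of these data known. All 10 members were named, with Ramac as the check of the siRNA, the genes beside Ccne1 in rank, the 5 genes most like Ccne1, and of each list at most the 3 genes with the smallest p in input or in polysomes. Fbxw7, Skp2 and the marker genes were named outside that rule. Alternatives were DESeq2 1.42.0, limma-voom (limma 3.58.1), RLE and library-size scaling, no filter on low counts, one fit of all libraries, the replicate block alone and with each of these tools and scalings, each library left out in turn, and the length of the longest transcript. The 3′ UTR search is not reported here for 1 of the 10 genes.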

Additional observations from a re-analysis of the deposited data

Results flagged for a closer look

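In 6 of the 40 groups of 4 libraries (10 genes in 4 groups), the highest or lowest library stood further from the others than Dixon's 95% limit for the gap over the range allows, which chance gives in about 1 of 20 groups. Replicate 4 was the outlying library in 5 of the 6. It was the highest library for Ccnd3 in control polysomes (347.3 CPM), for Cdk4 in control input (407.2 CPM) and RAM siRNA input (397.4 CPM) and for Ccna2 in RAM siRNA input (193.3 CPM), and the lowest for Cdk6 in RAM siRNA input (46.11 CPM). The other was replicate 3 of Ccne1 in control polysomes, the highest at 941.3 CPM. In each case the library of the same number with the other siRNA lay on the same side in that fraction. What set these libraries apart was not tested.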

How the results depend on the processing

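With the replicate block, the input change called 5028 genes against 1651 without it, the polysome change 1875 against 3, and the change of loading 2 against 0 (block within each fraction), and 5 against 0 of the 10 genes were called in polysomes. Blocked fits of the input change by other means called 3149 genes (DESeq2), 5034 (limma-voom), 5057 (RLE scaling) and 5256 (library size only), and of the polysome change 1588, 1853, 1958 and 1827, with 5 of the 10 genes each time. The last 2 scalings with the block were chosen after seeing the data. One fit of all 16 libraries called 186 genes for the input change and 453 for the polysome change, with 2 of the 10 genes (Ccnd3 and Ccne1). For the polysome change, no filter gave 32 genes and 1 of the 10 (Ccne1), and DESeq2 gave 300 and 3 of the 10. DESeq2 called 1 gene for the change of loading.

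When each library was left out in turn, the input change called from 913 (without RAM siRNA replicate 1) to 2506 genes (without RAM siRNA replicate 4) and the polysome change from 0 to 48 (without RAM siRNA replicate 2). Blocked fits without replicate 1, 2, 3 or 4 called 3579, 4026, 4231 and 4967 genes for the input change and 806, 4558, 1197 and 918 for the polysome change, with 4, 5, 4 and 4 of the 10. In all 9 blocked alternatives Ccnd1, Ccnd2, Ccnd3 and Ccne1 were called in polysomes, and Ccna2 in 6. The polysome change of Cdk4 turned sign without replicate 2 in the blocked fit (0.055) and without control replicate 4 (0.085), and leaving out single libraries moved it between -0.270 (without RAM siRNA replicate 4) and 0.166 (without RAM siRNA replicate 2). That of Cdk2 moved between -0.203 and 0.012 with the same libraries left out. The cause was not tested. None of the 10 input changes turned sign in 23 alternatives. For loading in control, 7 to 10 of the 10 were called. Most genes were called there, 67.4% of all without the block and 72.3% with it, and the shares in the other alternatives are not given here. Ccne2 missed the threshold in 5 of 23 alternatives, and Cdkn1b without the filter (adjusted p = 0.175 by edgeR). The median loading of all genes was -0.18 without the filter and -0.11 with library size only and the block. Over the longest transcript the Ccnd3 share in input was 92.71% and 80.78% and the Ccne1 share 92.29% and 82.55%.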
